A study of Mus musculus with 4 samples.

Results

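The 10 genes described here are the Janus kinases Jak1, Jak2 and Jak3, the feedback inhibitors Socs1, Socs2, Socs3 and Cish, and the PIM kinases Pim1, Pim2 and Pim3. They were taken by name from the deposited table of 12701 genes, and all 10 had a row there. The RNA-seq libraries came from mouse female germline stem cells (FGSCs), cultured cells of ovarian origin, infected with lentivirus. One group carried a control hairpin RNA (shNC) and the other a hairpin against the lncRNA Gm26917 (shGm26917), with 2 libraries in each. The study's methods describe drug selection of infected cells, and several hairpins were made, of which the sequenced one was not identified here. The titles call the second group KO, although a hairpin lowers RNA and deletes no gene.

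The cytokine receptors that couple to JAKs have no kinase of their own and rely on JAK proteins bound to their tails. When a cytokine binds, the JAKs phosphorylate the receptor and the STAT transcription factors, which then enter the nucleus. Among the genes that STATs switch on are the SOCS family and Cish, whose proteins damp receptor signalling, and the PIM kinases, which favour survival and growth. SOCS and PIM transcripts therefore serve widely as readouts of cytokine signalling in blood cells, and LIF acting through JAK-STAT is known for its use in mouse stem cell culture.

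The STAT dimer motif, TTCNNNGAA, was searched for in RefSeq promoters (GRCm38.p6), each running from 250 bases before an annotated start to 50 bases from it. The motif reads the same on both strands. Of 9 genes with a promoter sequence, it was found in Cish and Socs3. Cish held it at 2 places, the first beginning at the start base and the other at base 12 counted from it. At least 1 match was held by 8.30% of 32851 promoters, and at least 2 by 0.457%. The wider spacing preferred by STAT6, TTCNNNNGAA, was in 0 of the 9 and in 6.95% of all promoters. The Cish and Socs3 windows are printed because they hold the motif, which stands in capitals.
Cish, chr9:107296409-107296708, plus strand: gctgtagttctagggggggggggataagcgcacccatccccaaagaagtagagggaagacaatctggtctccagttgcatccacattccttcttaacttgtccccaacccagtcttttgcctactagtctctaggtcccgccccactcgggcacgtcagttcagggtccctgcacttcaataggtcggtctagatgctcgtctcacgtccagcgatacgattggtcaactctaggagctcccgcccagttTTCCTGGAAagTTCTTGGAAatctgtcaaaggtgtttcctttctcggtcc
Socs3, chr11:117969317-117969616, minus strand: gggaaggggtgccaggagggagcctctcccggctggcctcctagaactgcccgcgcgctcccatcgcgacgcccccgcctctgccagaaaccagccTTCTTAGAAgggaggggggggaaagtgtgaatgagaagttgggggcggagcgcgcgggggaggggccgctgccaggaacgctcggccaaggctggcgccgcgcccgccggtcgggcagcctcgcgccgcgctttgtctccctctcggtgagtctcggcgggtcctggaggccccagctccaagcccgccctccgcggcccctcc
In GENCODE M21 the Cish matches, at 107296659 to 107296667 and at 107296670 to 107296678, lie in an exon, since that gene is annotated from 107296026, upstream of the RefSeq start. The Socs3 match, at 117969512 to 117969520, lies 154 bases before the RefSeq start, inside the longer GENCODE gene but outside its exons. A match is a string of letters, and binding at these places was not measured here.

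Levels are in CPM, a gene's reads divided by the library total and put on one common scale. The listed genes summed to 755159 to 771715 CPM per library. Gm42418, a separately annotated lncRNA beside Gm26917, fell from 3172 ± 409.8 CPM with shNC to 708 ± 30.1 CPM with shGm26917 (SD, n = 2, limma, adjusted p = 5.57e-05). Gm26917 as annotated went from 156 ± 1.03 to 120.3 ± 22.8 CPM without passing (log2 fold change -0.39, adjusted p = 0.0696). The study reported knockdown of Gm26917 by RT-qPCR, a different measure. Both lie on the plus strand of chromosome 17, Gm26917 at 39843013 to 39846341 and Gm42418 at 39846958 to 39848788. Probe positions that the study lists for Gm26917 run past the length of this Gm26917 interval. Whether the transcript it targeted reaches into Gm42418, or the hairpin acts on Gm42418 RNA directly, was not tested. The Gm26917 value turned on the knockdown libraries, being -0.58 without shGm26917 replicate 1 (adjusted p = 0.000278) and -0.19 without shGm26917 replicate 2 (adjusted p = 0.207), and it passed with the replicate number as a block (adjusted p = 0.0239).

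Of 11 germline markers 4 were among the genes analysed here, while Ddx4, Dazl, Pou5f1 (Oct4) and Prdm1 (Blimp1) had no row. Low genes seem to have been filtered before deposit, so a missing row does not show that the RNA is absent. The study characterised its FGSCs by RT-PCR for Oct4, Ddx4, Fragilis and Blimp1, and by immunofluorescence for DDX4 and OCT4. Ifitm3 (Fragilis), thus also an RT-PCR marker of the study, fell from 93.2 ± 9.10 to 52.8 ± 0.19 CPM (limma, adjusted p = 0.000902). Etv5, Zbtb16 and Gfra1 did not pass (-0.035, -0.30 and 0.34 as log2 fold changes). The lower sum of the list, 118 and 129.8 against 83.0 and 83.3 CPM, therefore rested mainly on Ifitm3. Of 14 mast cell markers 6 had a row, with a sum of 2746 and 2723 against 2556 and 2580.3 CPM made of opposite changes. Among them Cpa3 rose from 516 ± 36.0 to 778 ± 63.0 CPM, Il1rl1 fell from 461 ± 6.19 to 168 ± 6.53 CPM, and Gata2 fell (log2 fold change -0.33). Ms4a2 also fell (-2.06), near the floor, at 1.82 and 2.29 CPM against 0.251 and 0 CPM. Kit, at 1241 ± 53.4 against 1207 ± 29.1 CPM, and Mitf did not pass. Of 7 fibroblast markers 6 had a row (421 and 440.3 against 386 and 373 CPM), of which Col3a1 rose, Thy1 fell and 4 did not pass. Of 7 macrophage markers 3 had a row (194 and 169.6 against 171 and 166 CPM), of which Cd68 fell. Both granulosa cell markers with a row, Inhba and Fst of a list of 6, fell (44.5 and 48.4 against 23.4 and 21.9 CPM). Of 5 endothelial markers 2 had a row and did not pass (2.30 and 2.38 against 2.61 and 2.93 CPM), of 9 T and NK cell markers Lck had one and fell (2.39 and 1.94 against 1.2 and 1.07 CPM), and of 5 B cell markers 0 had one. The part of these cells in the results was not tested.

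Of the 10 genes, 3 rose after the knockdown, 0 fell and 7 did not pass, where passing means an adjusted p under 0.05 over all genes by limma. Pim2, Socs1 and Cish were the 3 that rose. By the same rule 23.1% of all genes were called, 11.6% as higher and 11.5% as lower, so 3 of 10 lies near the background. The median log2 fold change was 0.058 over the 10 genes and -0.0058 over all genes, and the median absolute change was 0.13 and 0.16. In 8 of the 10 genes the groups did not overlap, 5 of them being higher and 3 lower with shGm26917, and such separation held for 64.2% of all genes. In bulk RNA, fewer cells of a type and less RNA per cell cannot be told apart.

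The JAK kinases stand upstream, and 0 of the 3 passed the test. Jak1 (chromosome 4, 101152367 to 101265282, minus strand, mm10), which serves interferon receptors and receptors that share gp130 or the common gamma chain, stood at 209 and 193 CPM in the controls and at 186 and 175 CPM after knockdown. The knockdown libraries were the lower pair, with no overlap. The log2 fold change was -0.16 (95% interval -0.31 to -0.0050; limma, adjusted p = 0.124). Without shNC replicate 2 Jak1 was called lower (-0.21, adjusted p = 0.0220), whereas without shNC replicate 1 or shGm26917 replicate 2 the change was -0.10 or -0.11 (adjusted p = 0.230 and 0.532). Raver2 lies over Jak1 on the opposite strand, and whether counting used strand is unknown here.

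Jak2 (chromosome 19, 29251828 to 29313080, plus strand), the kinase of the erythropoietin, thrombopoietin and interleukin-3 receptors, stood at 67.5 and 65.8 CPM in the controls against 62.5 and 61.3 CPM after knockdown. Again the knockdown libraries were lower without overlap, and the log2 fold change was -0.11 (95% interval -0.23 to 0.021; limma, adjusted p = 0.201). Jak3 (chromosome 8, 71676296 to 71690575, plus strand), which pairs with the common gamma chain and is best known from lymphocytes, measured 14.4 and 15.2 CPM in the controls and 13.8 and 13.6 CPM after knockdown. It too was lower in both knockdown libraries (log2 fold change -0.11, 95% interval -0.31 to 0.086; adjusted p = 0.381), with a change of -0.15 without shNC replicate 1 and -0.070 without shNC replicate 2. Insl3 overlaps Jak3 on the same strand. Il2rg, the gene of the common gamma chain, named after its values were seen, measured 71.8 and 76.2 CPM against 70.7 and 67.7 CPM and did not pass (adjusted p = 0.285).

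Tyk2, the remaining kinase of the family, is outside the 10 genes, and it rose. TYK2 serves type I interferon and interleukin-12 receptors. The control libraries held 15.6 and 18.5 CPM and the knockdown libraries 24.7 and 24.6 CPM, a clear separation. The log2 fold change was 0.52 (95% interval 0.30 to 0.74; limma, adjusted p = 0.00843), and the call held under each of the 11 alternatives (largest adjusted p = 0.0398). Summed over Jak1, Jak2 and Jak3, the kinase transcripts came to 291 and 274 CPM in the controls and 263 and 249.6 CPM after knockdown. Jak1 made up most of each sum, and none of these genes passed.

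**Figure D1:**
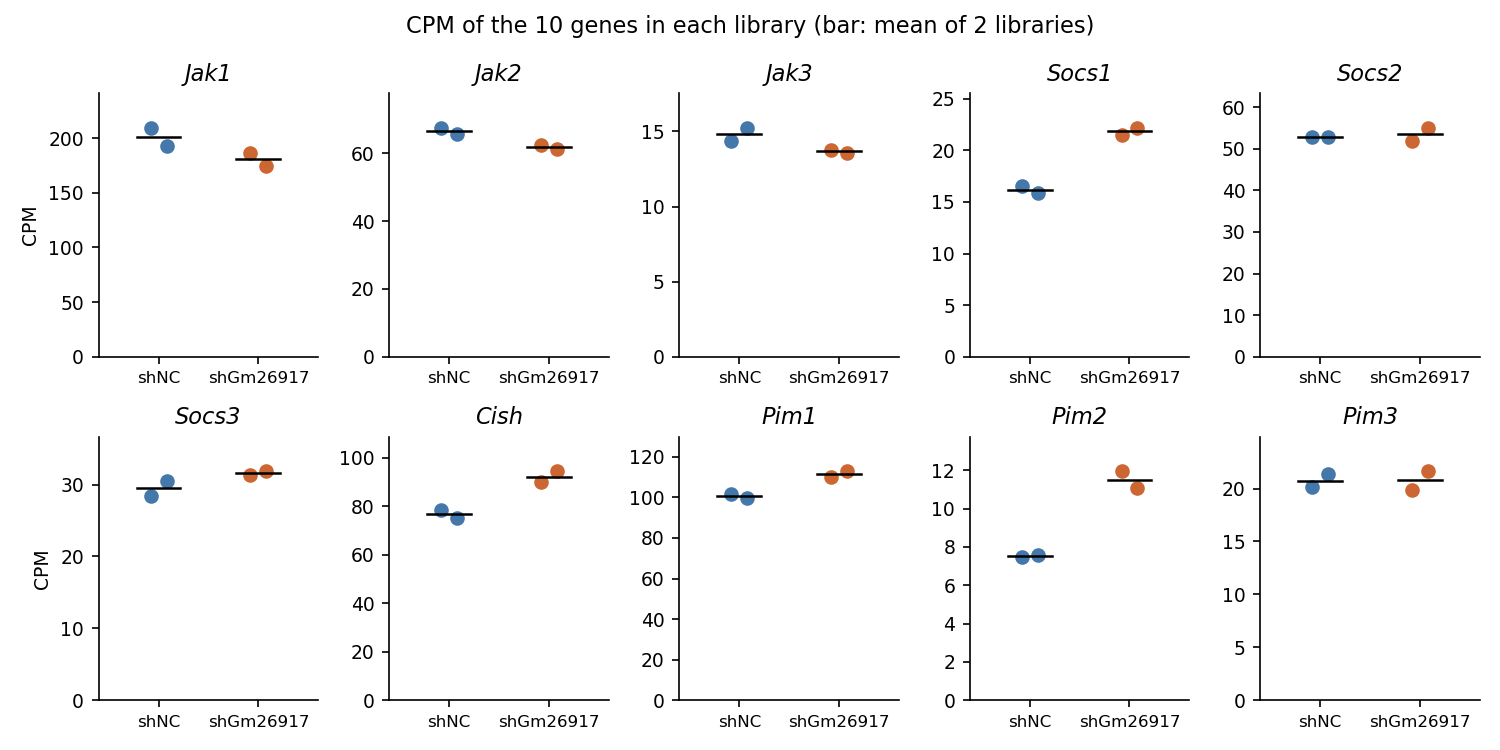
CPM of each of the 10 genes by group, with 1 point per library, a bar at the mean of 2 libraries and each vertical axis starting at 0. The shGm26917 points of Pim2, Socs1 and Cish sit above the shNC points, those of Jak1, Jak2 and Jak3 sit slightly below, and those of Socs2 and Pim3 overlap.

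Among the feedback inhibitors, 2 of 4 rose. Socs1 (chromosome 16, 10782240 to 10785536, minus strand), which blocks JAK catalysis directly and is a strong brake on interferon signalling, measured 16.6 and 15.8 CPM in the controls and 21.5 and 22.2 CPM after knockdown. The gap between the groups was larger than the spread within either. Its mean rose from 16.2 ± 0.53 to 21.9 ± 0.46 CPM (SD, n = 2), a log2 fold change of 0.42 (95% interval 0.24 to 0.60; limma, adjusted p = 0.00886). With single libraries left out the change ran from 0.39 to 0.45 and stayed called, with a largest adjusted p of 0.0479 without shGm26917 replicate 2.

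Cish (chromosome 9, 107296026 to 107302784, plus strand), a classic STAT5 target whose protein competes for docking sites on receptors, measured 78.3 and 75.4 CPM in the controls and 90.0 and 94.5 CPM after knockdown. The groups did not overlap, and the gap exceeded the spread within each. Its mean rose from 76.9 ± 2.1 to 92.2 ± 3.16 CPM, a log2 fold change of 0.26 (95% interval 0.13 to 0.39; limma, adjusted p = 0.0162). The call was lost without shGm26917 replicate 2 (0.23, adjusted p = 0.131) and in a fit with neither robust step nor variance trend (adjusted p = 0.0737). Gm17040 and Gm17041 overlap Cish on the opposite strand.

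Socs2 and Socs3 gave no call. Socs2 (chromosome 10, 95385362 to 95417180, minus strand), which restrains growth hormone signalling, measured 52.7 and 52.9 CPM in the controls and 52.0 and 55.0 CPM after knockdown. The knockdown libraries lay on either side of the controls (log2 fold change 0.018, 95% interval -0.12 to 0.16; limma, adjusted p = 0.853). Socs3 (chromosome 11, 117966079 to 117970047, minus strand), a STAT3 target that restrains gp130 receptors, measured 28.4 and 30.5 CPM in the controls and 31.3 and 31.8 CPM after knockdown. Its groups were apart by less than the spread of the controls (log2 fold change 0.10, 95% interval -0.061 to 0.26; adjusted p = 0.338). Without shNC replicate 1 the Socs3 change was 0.048, and without shNC replicate 2 it was 0.15. Of the genes whose windows hold the STAT motif, Cish thus rose and Socs3 did not pass, while Socs1 and Pim2 rose with neither motif in theirs.

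Ratios within a library set these inhibitors beside each other. Cish over Socs2 was 1.49 and 1.43 in the controls and 1.73 and 1.72 after knockdown. Socs1 over Socs3 was 0.583 and 0.518 in the controls and 0.688 and 0.697 after knockdown. Both ratios were higher in each knockdown library than in each control. Each sets a gene called higher over a gene that did not pass, so it restates the calls. With 2 libraries against 2, a two-sided exact permutation test cannot go below p = 0.333, so these ratios were not tested.

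The PIM kinases need no activating subunit, and their amount largely sets their activity. Pim2 (chromosome X, 7878262 to 7883432, plus strand) measured 7.47 and 7.58 CPM in the controls and 12.0 and 11.1 CPM after knockdown. The controls were nearly equal and both knockdown libraries lay well above them. Its mean rose 1.53-fold, from 7.53 ± 0.080 to 11.5 ± 0.63 CPM (SD, n = 2), with a log2 fold change of 0.58 (95% interval 0.35 to 0.81; limma, adjusted p = 0.00694). It was the largest change among the 10 genes and ranked 933 of 12701 by absolute size. The call held under each of the 11 alternatives, with changes of 0.53 to 0.63 and a largest adjusted p of 0.0368.

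Pim1 (chromosome 17, 29490753 to 29496112, plus strand), a STAT5 and STAT3 target, measured 102 and 99.8 CPM in the controls and 110.2 and 113 CPM after knockdown. The groups did not overlap, but the log2 fold change of 0.15 did not pass (95% interval 0.025 to 0.27; limma, adjusted p = 0.0832), nor did it under any of the 11 alternatives (lowest adjusted p = 0.0504). Gm26885, on the strand opposite Pim1, had 0.814 to 2.07 CPM. Pim3 (chromosome 15, 88862186 to 88865726, plus strand) measured 20.2 and 21.4 CPM in the controls and 19.9 and 21.6 CPM after knockdown. Its groups overlapped, and the log2 fold change of -0.00025 (95% interval -0.19 to 0.19; adjusted p = 0.998) turned sign with the scaling. Pim2 over Pim3 within a library was 0.371 and 0.355 in the controls and 0.601 and 0.512 after knockdown, higher in each knockdown library. That ratio, too, sets a called gene over one that did not pass.

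**Figure D2:**
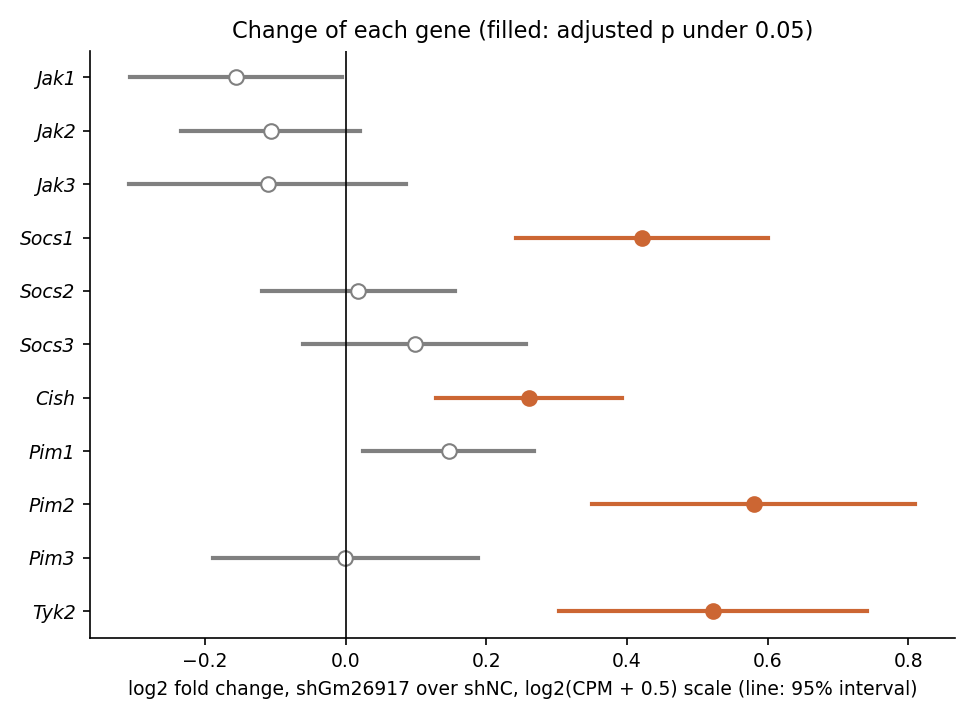
Log2 fold change of shGm26917 over shNC on the log2(CPM + 0.5) scale for the 10 genes and Tyk2, with 95% intervals from limma and filled points for an adjusted p under 0.05. Pim2 (0.58), Tyk2 (0.52), Socs1 (0.42) and Cish (0.26) are filled, while Jak1, Jak2 and Jak3 are open and lie between -0.16 and -0.11.

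**Figure D3:**
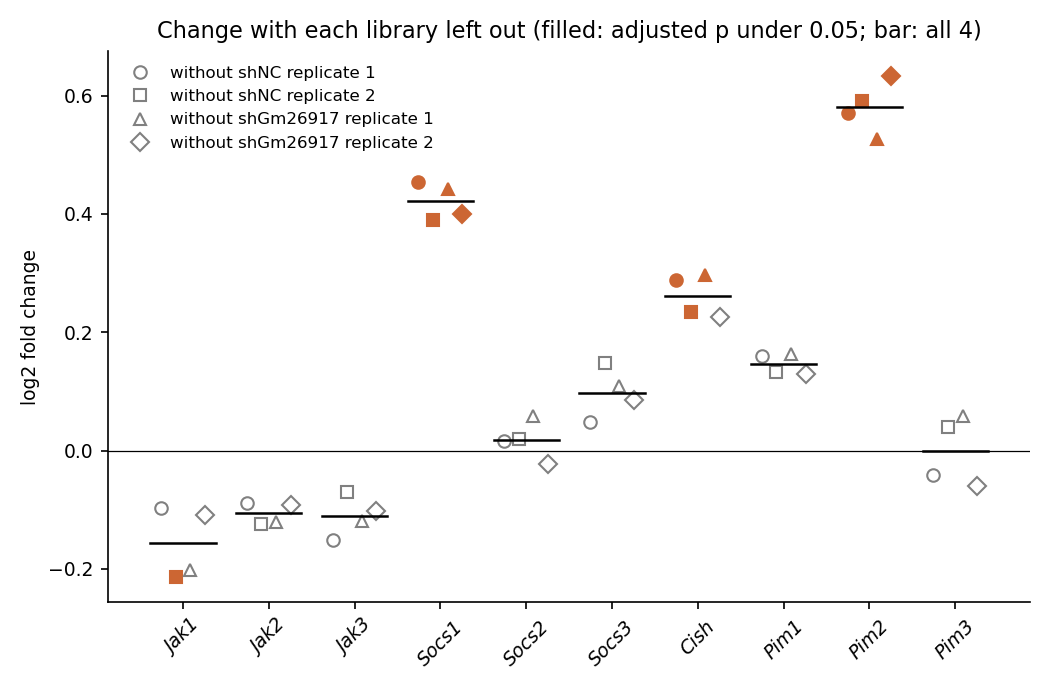
Log2 fold change of each of the 10 genes when 1 of the 4 libraries is left out, with filled points for an adjusted p under 0.05 and a bar for the value with all 4. Pim2 and Socs1 stay filled with each library left out, Cish is open without shGm26917 replicate 2, and Jak1 is filled only without shNC replicate 2.

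Levels of different genes were compared per kilobase of annotated exon. In the controls Pim1 had the highest level, at 30.0 ± 0.38 CPM per kb (SD, n = 2), above Jak1 at 27.9 ± 1.59. Jak2 at 13.3 ± 0.24, Cish at 12.0 ± 0.33, Socs3 at 10.2 ± 0.51 and Pim3 at 8.55 ± 0.35 CPM per kb followed, with no overlap between neighbours. Socs1 and Socs2 overlapped, at 5.57 ± 0.18 and 5.54 ± 0.012 CPM per kb. The lowest levels were those of Jak3 at 2.77 ± 0.11, Pim2 at 2.69 ± 0.029 and Tyk2 at 2.48 ± 0.29 CPM per kb, also with overlapping libraries. After knockdown Cish, at 14.4 ± 0.49 CPM per kb, stood above Jak2 at 12.3 ± 0.17. Socs1 at 7.52 ± 0.16 stood clear of Socs2 at 5.61 ± 0.23, and Pim2 at 4.12 ± 0.22 and Tyk2 at 3.59 ± 0.0072 stood above Jak3 at 2.55 ± 0.022 CPM per kb. Use of shorter or longer transcripts was not analysed and would move these levels.

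**Figure D4:**
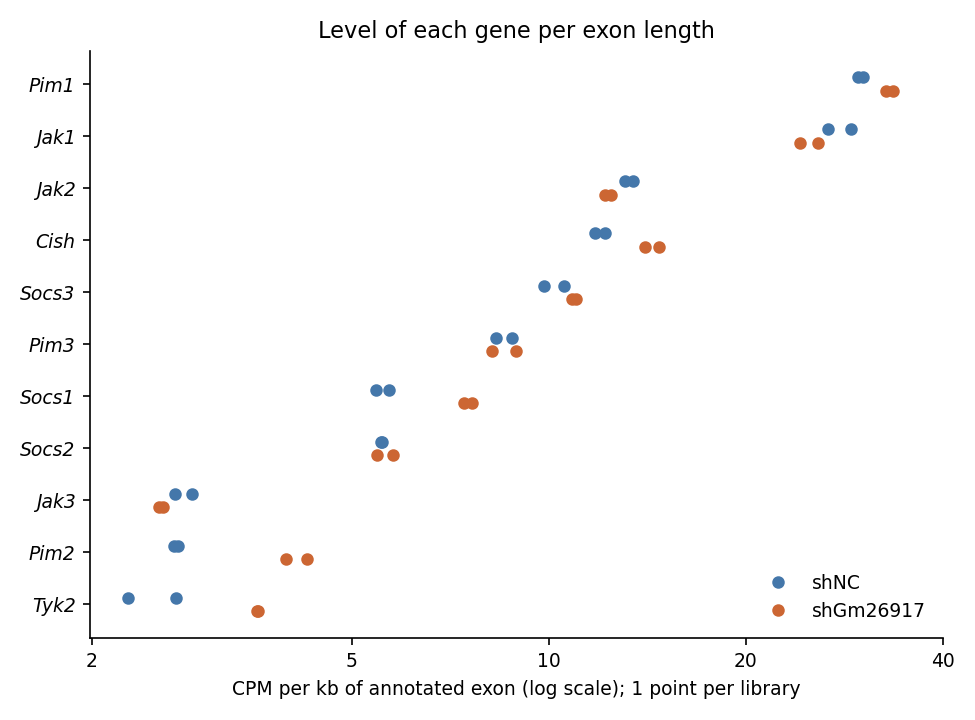
Level of the 10 genes and Tyk2 in CPM per kb of annotated exon on a log axis, with 1 point per library and genes ordered by their shNC mean. Pim1 and Jak1 lie highest, and with shGm26917 Cish passes Jak2 while Pim2 and Tyk2 pass Jak3.

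Genes around these 10 in the pathway were taken from 8 lists, of which Tyk2 alone was the first. Of 159 symbols in them 120 were analysed here, and 20 rose, 29 fell and 71 did not pass. That is 40.8% called, beside 23.1% of all genes. The lists were chosen with earlier results of these data known, so this difference is not a test of the pathway. Bare values beside the gene names that follow are log2 fold changes. Of 6 STAT genes, 1 fell and 0 rose (16.7% called), with a median log2 fold change of -0.11. Stat5b, which carries growth hormone and interleukin signals, fell from 173 ± 6.39 to 144 ± 1.96 CPM (-0.26; limma, adjusted p = 0.0152). That call was lost without shGm26917 replicate 1 or 2 (adjusted p = 0.0587 and 0.0994). The near-identical Stat5a had -0.14 (adjusted p = 0.108), and how reads were split between the pair is uncertain. Stat3 and Stat6 had 0.13 and -0.12 and did not pass (adjusted p = 0.202 and 0.186).

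Of 21 other SOCS genes and regulators of JAK-STAT signalling, 2 rose and 6 fell, with a median of -0.10. The list also holds Stam, Stam2, Sh2b1, Sh2b2 and Ptpn11, which are not plain inhibitors. Its counts and median thus describe a mixed set. Dusp2, a nuclear phosphatase gene, fell from 16.3 ± 0.42 to 8.82 ± 0.13 CPM (-0.85; limma, adjusted p = 0.00126). Stam, whose protein sorts receptors on endosomes and binds JAKs, fell from 98.4 ± 4.25 to 67.2 ± 0.21 CPM (-0.55, adjusted p = 0.00126). Socs6 fell by 0.37 on the log2 scale (adjusted p = 0.00607). The phosphatase genes Ptpn2 (-0.28) and Ptpn1 (-0.33) and the ubiquitin ligase gene Cblb (-0.24) fell as well, but each call was lost without shGm26917 replicate 1 (adjusted p = 0.150, 0.0556 and 0.176), and those of Ptpn1 and Cblb also without shNC replicate 1 (0.0744 and 0.0865) or shGm26917 replicate 2 (0.132 and 0.0839). The genes that rose, named after their values were seen, were Socs4 (0.19) and Ptpn6 (0.25). Their calls were lost without shGm26917 replicate 1 (adjusted p = 0.186 and 0.139) or 2 (0.230 and 0.106), and that of Ptpn6 without shNC replicate 2 (0.0817). Ptprc, Cbl and Ptpn11 had 0.060, -0.089 and -0.11 and did not pass.

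Of 29 cytokine receptor genes, 6 rose and 5 fell (37.9% called), with a median of 0.037. Il12rb2, a signalling chain of the interleukin-12 receptor, rose from 29.8 ± 1.52 to 47.8 ± 2.11 CPM (0.67; limma, adjusted p = 0.00122). Il15ra, the high-affinity interleukin-15 chain, rose from 5.89 ± 0.25 to 10.9 ± 0.43 CPM (0.84, adjusted p = 0.00234). Csf2rb, the shared beta chain of interleukin-3, interleukin-5 and GM-CSF receptors, rose from 200.3 ± 12.2 to 261 ± 6.15 CPM (0.38, adjusted p = 0.00616). Its close relative Csf2rb2, with which it can share reads, had 0.055 (adjusted p = 0.499). Il7r (-0.83, adjusted p = 0.00414), Ifnar1 (-0.35, adjusted p = 0.00566) and Il9r (-0.30, adjusted p = 0.0111) fell, the last without a call when shGm26917 replicate 1 was left out (adjusted p = 0.0614). The other 5 called genes, named after their values were seen, were Il2ra (0.71), Il12rb1 (0.51) and Il6st (0.24), which rose, and Ifngr2 (-0.38) and Ifngr1 (-0.30), which fell. Without shGm26917 replicate 1 the calls of Il12rb1, Il6st, Ifngr2 and Ifngr1 were lost (adjusted p = 0.184, 0.0668, 0.0700 and 0.114). Without shGm26917 replicate 2 those of Il12rb1, Il6st and Ifngr1 were lost (0.198, 0.129 and 0.106), and without shNC replicate 2 those of Il12rb1 and Ifngr1 (0.0558 and 0.0556). The Il2ra call was lost only with no robust step and no variance trend (adjusted p = 0.0531). Il4ra and Ifnar2 did not pass (0.10 and 0.16).

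Of 31 other reported targets of STAT5 and STAT3, 5 rose and 14 fell (61.3% called), with a median of -0.15. Many of them respond to other pathways as well. The survival gene Bcl2, the receptor gene Tnfrsf13b and the growth regulator Myc rose (1.17, 1.40 and 0.83). Gfi1, a repressor gene of blood progenitors, fell from 60.6 ± 1.14 to 33.0 ± 0.53 CPM (-0.87; limma, adjusted p = 0.000264). Dusp6, an ERK phosphatase gene, and Fos, an early response gene, fell by 1.16 and 2.07 on the log2 scale. Hif1a, Vegfa and Osm did not pass (-0.12, -0.15 and 0.023).

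Of 23 genes for PIM substrates and partners, Myc among them, 7 rose and 2 fell (39.1% called), with a median of 0.014. Cdkn1b, which encodes the cell cycle inhibitor p27, a PIM substrate, fell from 95.9 ± 0.99 to 52.6 ± 0.89 CPM (-0.86; limma, adjusted p = 0.000214). Mapk6, an atypical MAP kinase gene, also fell (-0.43, adjusted p = 0.00265). Cdc25c, a mitotic phosphatase gene, rose (0.52, adjusted p = 0.00710), as did the transcription factor genes Runx3 (0.33) and Nfatc1 (0.27). Without shGm26917 replicate 1 the Runx3 and Nfatc1 calls were lost (adjusted p = 0.0548 and 0.0610), while leaving out shGm26917 replicate 2 cost Nfatc1 its call (0.0599). Eif4b, Cbx3 and Cdkn1a did not pass (0.014, -0.16 and -0.18). Phosphorylation was not measured. Of the genes named from these lists, Stat5b, Ptpn1, Ptpn2, Ptpn6, Cblb, Socs4, Il6st, Ifngr1 and Nfatc1 also lost their calls with no robust step and no variance trend, at adjusted p from 0.0565 to 0.122.

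**Figure D5:**
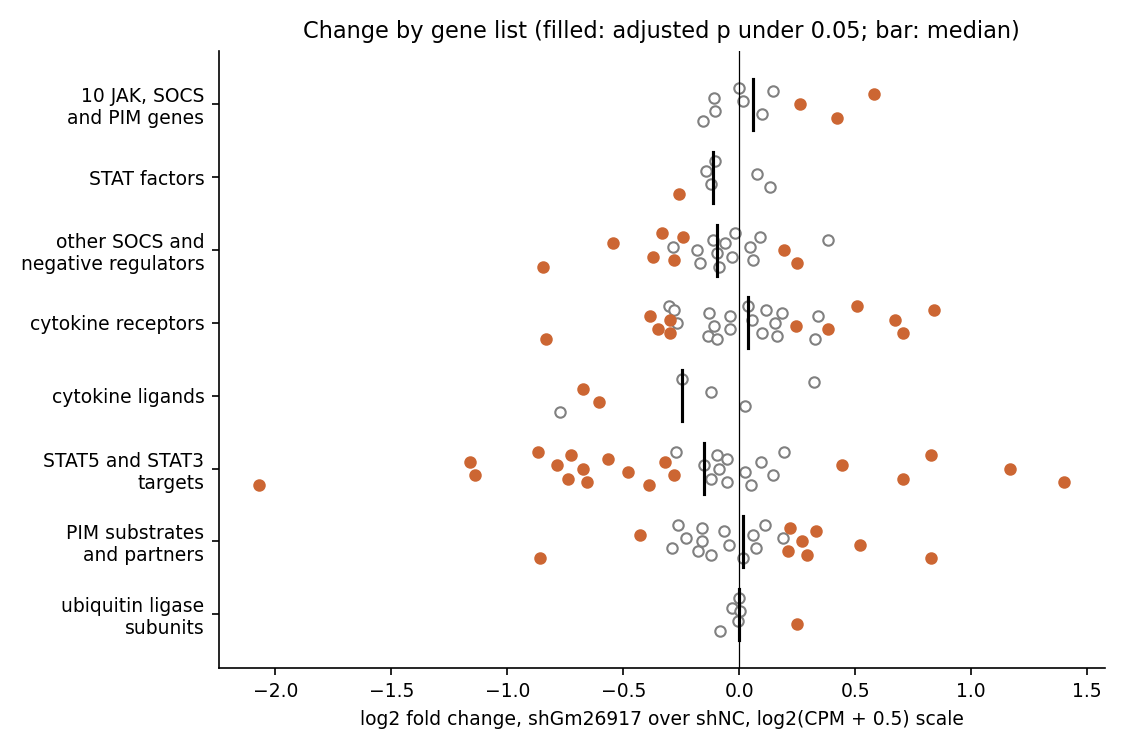
Log2 fold change of shGm26917 over shNC for the 10 genes and for 7 lists of related genes, with 1 point per gene, filled for an adjusted p under 0.05, and a bar at each list's median. Vertical scatter within a list carries no value. Called genes lie on both sides of 0 in the regulator, receptor, target and substrate lists, and medians run from -0.25 to 0.058.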

How the data were processed

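RNA of 4 FGSC libraries was sequenced. Groups follow the labels and replicate numbers the titles. The authors deposited CPM per gene and library, made, by the submitters' notes, with Bowtie2 2.1.0, RSEM 1.2.28 and edgeR on mm10. Every gene listed reached 1.003 CPM or more in 2 libraries, a sign of a filter before deposit. The authors' fold changes and p-values were not used.

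CPM were transformed as log2(CPM + 0.5), a scale that understates changes of low genes. The groups were compared with limma 3.58.1 (R 4.3.3), using a variance trend and robust moderation over all 12701 genes, two-sided, with Benjamini-Hochberg adjustment. Beforehand the fit was run on simulated data whose spread followed mean level alone, which does not check the calls made here. Whether libraries of a group are separate cultures is not stated by the labels, so p-values measure the spread between these libraries, which may be technical.

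The 10 members and the 8 lists were chosen with earlier results of these data known. Named from each list were up to 6 called genes by smallest p and up to 3 others by highest mean CPM. The 2 rows on patch scaffolds that repeat a symbol were left out. Exon lengths are unions of GENCODE M21 exons. The alternatives were pseudocounts of 0.1 and 1, scaling by median ratio or by upper quartile, a filter of 5 CPM in 2 libraries, each library left out, the replicate number as a block, and no robust step with no variance trend.

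Reads were not recovered, since at most 68.1% of values under 2 CPM lay within 0.02 of a whole multiple of a step. The steps give library sizes of about 12851000 to 17938000 reads, or 25702000 to 35889000 reads if the finer step is 1 read. On the smaller sizes Pim2 rests on about 97.5 to 214 reads per library.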

Additional observations from a re-analysis of the deposited data

How the results depend on the processing

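With single libraries left out, 752 to 1793 genes were called higher and 832 to 1735 lower, against 1469 and 1461 with all 4, a lone library being assumed to vary like the other group. Of the 10 genes, 2 to 3 were then higher and 0 to 1 lower, the last being Jak1 without shNC replicate 2. With no robust step and no variance trend, 929 genes were higher and 918 lower, and 2 of the 10 genes, Pim2 and Socs1, were higher. A replicate block gave 1979 higher and 2003 lower and called 1 of the 10 genes, Jak1, lower (adjusted p = 0.0482). The labels give same-numbered libraries only a number in common, and replicate differences of both groups correlated at 0.057 across genes. Whether such libraries share a batch was not tested. Pim3 had 0.0055 with median-ratio and 0.014 with upper-quartile scaling, and -0.059 to 0.059 with single libraries left out, and Socs2 -0.023 to 0.059, Socs3 0.048 to 0.15 and Jak3 -0.15 to -0.070. Of 35 called pathway genes followed, 19 kept their call under each alternative, 16 lost it under at least 1 and 0 changed sign. Il12rb1 had no value under the 5 CPM filter. The cause was not tested. With 2 libraries a group, changes inside the intervals given cannot be resolved.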

Other observations

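Of 29 ligand genes of JAK-coupled receptors, 7 were analysed here, of which 2 fell and 0 rose. That is 28.6% called, near the 23.1% of all genes. Lif, the leukemia inhibitory factor gene, was lower, at 22.1 ± 1.46 CPM after knockdown against 35.5 ± 2.12 CPM in the controls (SD, n = 2; -0.67; limma, adjusted p = 0.00193). Clcf1, which encodes another cytokine acting through gp130, fell by 0.61 on the log2 scale (adjusted p = 0.0150), with an adjusted p of 0.0501 when shGm26917 replicate 1 was left out. Il6, Osm and Il4 did not pass (-0.12, 0.023 and -0.25). Of 6 genes for subunits of Cul5 or Cul2 ubiquitin ligases, listed as possible partners of SOCS proteins, Cul2 rose (0.25; limma, adjusted p = 0.0157). That call was lost without shGm26917 replicate 1 or 2 (0.26 and 0.24). It was also lost with no robust step and no variance trend (adjusted p = 0.0679). Eloc, Cul5 and Elob did not pass (-0.033, -0.084 and -0.0035). Of these 6 ubiquitin ligase genes 16.7% were called, under the 23.1% of all genes.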
